A study of Homo sapiens with 18 samples.

Results

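The genes described here are MAGEA1, MAGEA3, MAGEA4, MAGEA6, MAGEA10, MAGEA12, MAGEC2, PRAME, PRSS21 and LDOC1. They are 10 of the 19901 genes in the count table and were matched by gene symbol. They were chosen by their counts in the untreated and treated libraries of each line, which earlier results of the same data had shown to be high in 1 cell line and low in the others, so their difference between lines is given as a description with no test. The counts of FaDu genes in HGF-treated SCC-9 replicate 3 were also known when the genes were chosen, so the HGF results that rest on that library are a description too. The effect of hepatocyte growth factor (HGF), the ligand of the Met receptor, was tested for each gene in the line that expressed it.

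mRNA was sequenced from 3 established head-and-neck squamous carcinoma lines, which were FaDu from the hypopharynx, Detroit 562 from a metastasis of a tumor of the pharynx, and SCC-9 from the tongue. Each line had 3 untreated control libraries and 3 libraries of cells treated with 50 ng/mL HGF, which makes 18 in all. Treatment lasted 16 h in the sample records and 48 h in the series record, and each line is a single culture model that stands for 1 tumor. The SCC-9 medium (DMEM F12) contained hydrocortisone and differed from the MEM-α of the other lines, so line and medium cannot be told apart. In such bulk libraries, fewer cells that express a gene and less RNA per cell cannot be told apart either. The study's methods describe repeats of the experiment, but the labels do not tie the replicate numbers to them, and p-values measure only the spread between these libraries of each line.

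The libraries held 35304770 to 44003970 counts each. All 7 squamous and epithelial markers looked up (KRT5, KRT14, KRT17, KRT6A, TP63, CDH1 and EPCAM) had counts in every library, with KRT14 lowest in Detroit 562 at a mean normalized count of 46.2. The summed normalized count of these markers was 82005 to 178606 in Detroit 562, 182421 to 438200 in FaDu and 306663 to 392327 in SCC-9. For 10 markers of leukocytes, endothelium, fibroblasts and muscle the sums were 2658 to 3061, 1159 to 1707 and 5538 to 7116. A pair of libraries stood apart for the genes described here. HGF-treated SCC-9 replicate 3 held counts of all 4 genes that FaDu expressed, HGF-treated Detroit 562 replicate 3 held fewer, and results that rest on these libraries are given with and without them.

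Cancer-testis genes are active in male germ cells, silent in most adult tissues and switched on again in some tumors, often where DNA methylation of their promoters is lost. Many lie in multicopy families on the X chromosome. The MAGEA and MAGEC proteins bind RING-type ubiquitin ligases, and peptides from them and from PRAME are targets of T cells. PRAME is a leucine-rich repeat protein that serves as a substrate receptor of a cullin ligase, PRSS21 (testisin) is a membrane-anchored serine protease of sperm cells, and LDOC1 is a small X-linked gene derived from the gag of a retrotransposon. LDOC1 is expressed in many normal tissues and is not a classical cancer-testis gene.

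The MAGEA genes are near copies of each other, and their sequences are shown because the counts of MAGEA3 and MAGEA6 depend on telling them apart. Each line below gives 75 bases of the coding sequence of the canonical GENCODE 44 transcript, chosen as the stretch with the most differences between MAGEA3 and MAGEA6, with bases that differ from MAGEA3 in capitals.
MAGEA3: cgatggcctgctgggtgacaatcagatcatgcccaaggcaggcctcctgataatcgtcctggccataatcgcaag
MAGEA6: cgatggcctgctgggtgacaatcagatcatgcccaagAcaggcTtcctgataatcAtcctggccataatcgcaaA
MAGEA12: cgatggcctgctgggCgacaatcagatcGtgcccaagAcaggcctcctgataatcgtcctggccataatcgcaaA
MAGEA4: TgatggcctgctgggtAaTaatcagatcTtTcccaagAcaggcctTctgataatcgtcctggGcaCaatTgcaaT
MAGEA1: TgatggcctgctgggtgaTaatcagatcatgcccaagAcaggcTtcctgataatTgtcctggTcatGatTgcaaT
The stretch covers coding bases 558 to 632 of MAGEA3, MAGEA6 and MAGEA12, 561 to 635 of MAGEA4 and 537 to 611 of MAGEA1. Within it MAGEA6 and MAGEA12 differed from MAGEA3 at 4 bases each, MAGEA1 at 9 and MAGEA4 at 11. Over the whole coding sequence, MAGEA3 and MAGEA6 differed at 18 of 945 aligned bases and were 98.1% identical. MAGEA12 was 92.2% identical to MAGEA3, MAGEA4 83.0%, MAGEA1 82.7% and MAGEA10 71.0%. Of all 75-base stretches of the MAGEA3 transcript, 44.5% also occurred in a transcript of another gene, for the most part in MAGEA6, which held 44.3% of them. The share was 44.3% for MAGEA6, 9.04% for MAGEA10, 0.667% for MAGEA4 and 0.175% for MAGEA12, and it was 0 for MAGEA1, MAGEC2, PRAME, PRSS21 and LDOC1. The counting command in the study's methods holds no filter on reads that align to several places, and whether such reads were removed earlier is not given in the sources used here. A read that fits both MAGEA3 and MAGEA6 may thus have counted for both, and the levels of these genes are uncertain to that extent. MAGEA4 shared no such stretch with either of them.

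Promoters are shown because loss of CpG methylation is the known switch of this class. The sequences are RefSeq promoter windows on GRCh38.p14, printed from 250 bases before the RefSeq start up to that start or to the edge of the gene in the count table, 5′ to 3′ on the gene's strand, with each CG pair in capitals.
MAGEA3: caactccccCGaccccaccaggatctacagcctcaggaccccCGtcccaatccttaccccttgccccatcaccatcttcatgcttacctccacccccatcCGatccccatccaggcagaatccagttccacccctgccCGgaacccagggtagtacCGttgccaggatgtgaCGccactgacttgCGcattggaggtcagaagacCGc
MAGEA12: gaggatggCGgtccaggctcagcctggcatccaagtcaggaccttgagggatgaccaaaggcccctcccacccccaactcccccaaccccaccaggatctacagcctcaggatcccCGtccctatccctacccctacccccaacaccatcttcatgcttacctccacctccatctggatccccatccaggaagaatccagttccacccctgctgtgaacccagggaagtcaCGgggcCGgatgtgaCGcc
MAGEA4: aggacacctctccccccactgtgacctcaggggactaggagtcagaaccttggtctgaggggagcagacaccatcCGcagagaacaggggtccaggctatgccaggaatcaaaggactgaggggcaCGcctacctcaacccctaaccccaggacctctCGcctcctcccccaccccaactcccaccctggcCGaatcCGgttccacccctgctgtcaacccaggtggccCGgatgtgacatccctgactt
PRAME: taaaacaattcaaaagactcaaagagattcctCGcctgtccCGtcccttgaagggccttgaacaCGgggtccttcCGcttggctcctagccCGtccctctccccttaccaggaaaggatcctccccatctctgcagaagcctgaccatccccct
LDOC1: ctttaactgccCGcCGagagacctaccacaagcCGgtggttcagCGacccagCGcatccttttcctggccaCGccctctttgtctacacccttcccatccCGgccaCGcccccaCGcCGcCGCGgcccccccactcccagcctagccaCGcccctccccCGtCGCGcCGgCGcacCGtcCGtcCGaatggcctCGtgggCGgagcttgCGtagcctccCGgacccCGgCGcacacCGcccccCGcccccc
They stand at chrX:152698544-152698751 (plus strand), chrX:152733507-152733756 (plus), chrX:151912224-151912473 (plus), chr22:22559362-22559515 (minus) and chrX:141177130-141177379 (minus). Windows were found for 8 of the 10 genes, 15 windows in all. MAGEA3 and MAGEA6, both SCC-9 genes, had the same 250 bases before their starts, with 0 differences. MAGEA12, another SCC-9 gene, was 89.7% identical to MAGEA3 over 175 aligned bases in its first window and 89.6% over 211 in its second. For MAGEA4, the FaDu gene, only the first of its 5 windows was compared, at 66.1% over 165 aligned bases. No split of promoters by line can be read from this. In the full windows of 300 bases, LDOC1 held 34 CG pairs, MAGEA3 and MAGEA6 19 each, PRSS21 19, and MAGEC2 10. Genes with several windows varied, with 10 to 15 over the 5 windows of MAGEA4, 9 and 15 in the 2 of MAGEA12, and 4 to 13 over the 3 of PRAME. The median over 35116 RefSeq promoters was 14, and 15.6% of them held at least as many as LDOC1. The ETS-type motif CCGGAA (searched on both strands, as TTCCGG on the other) occurred once in the windows of MAGEA3 and MAGEA6 and once in the first window of PRAME, and 17.2% of all promoters hold it. No methylation was measured in these libraries, and a match is a description of the letters only.

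FaDu expressed 4 of the 10 genes. MAGEA4, on the plus strand at chrX:151912509-151925170 in the GRCh38 coordinates of the table, had 9722, 8375 and 9377 counts in the FaDu controls and 11223, 8795 and 9287 with HGF. In the other lines it had 0 to 21 counts, apart from 176 in HGF-treated SCC-9 replicate 3, so FaDu stood far above every other library. PRSS21 (chr16:2817180-2826304, plus strand) had 4404, 4347 and 4035 counts in FaDu controls and 4347, 3812 and 3769 with HGF, against 0 to 15 elsewhere and 91 in that SCC-9 library. PRAME (chr22:22547701-22559361, minus strand) had 1289, 1555 and 1670 counts in FaDu controls and 1238, 1353 and 1613 with HGF. It was at 0 in 10 of the 12 libraries of the other lines, with 26 and 4 counts in SCC-9 and Detroit 562 HGF replicate 3. LDOC1 (chrX:141175745-141177125, minus strand) had 509, 515 and 663 counts in FaDu controls and 617, 510 and 627 with HGF, and it was at 0 in the same 10 libraries, with 19 and 4 counts in the same pair.

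SCC-9 expressed 5 of the genes, all MAGE genes of the X chromosome. MAGEA3 (chrX:152698752-152702347, plus strand) had 3861, 3785 and 4002 counts in SCC-9 controls and 3972, 4033 and 4481 with HGF, against 0 to 5 in the other lines. MAGEA6 (chrX:152766136-152769747, minus strand) had 2158, 2054 and 2387 counts in controls and 2245, 2217 and 2612 with HGF, against 0 to 8 elsewhere. Its counts and those of MAGEA3 may include shared reads. MAGEA12 (chrX:152733779-152737669, plus strand) had 1853, 1805 and 1909 counts in controls and 1950, 1959 and 2052 with HGF, and a single count in all 12 libraries of the other lines. MAGEC2 (chrX:142202345-142205290, minus strand), whose protein pairs with the ligase TRIM28, had 95, 83 and 85 counts in controls and 95, 91 and 85 with HGF and was at 0 in every library of the other lines. MAGEA10 (chrX:152133310-152138578, minus strand) had 63, 63 and 79 counts in controls and 76, 71 and 64 with HGF and a single count elsewhere. For each of the 5 genes the SCC-9 libraries lay above all others with no overlap.

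MAGEA1 (chrX:153179285-153183880, plus strand), the founding member of the family, marked no line by more than a few reads. Its counts were 1, 0 and 0 in SCC-9 controls and 4, 3 and 2 in HGF-treated SCC-9, and it was at 0 in all 12 libraries of FaDu and Detroit 562. The HGF-treated SCC-9 libraries lay above their controls without overlap, but at 4 counts or fewer, so no p is given. It did not pass the filter on low counts and was therefore not in the fit across genes, and 9 of the 10 genes were tested.

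Detroit 562 expressed none of the 10 genes at a mean of 10 counts or more. Its highest counts among them were 21 counts of MAGEA4 and 15 of PRSS21, both in HGF replicate 3. MAGEA3 had 3 to 5 counts and MAGEA6 1 to 8 in all 6 of its libraries, and MAGEA1, MAGEA12 and MAGEC2 were at 0 in all 6. MAGEA4 was higher with HGF in 3 of 3 pairs (0, 0 and 0 counts in controls against 1, 1 and 21), with nearly all counts in HGF replicate 3. MAGEA6 was also higher in 3 of 3 pairs (4, 1 and 7 against 8, 4 and 8), with overlapping groups. PRSS21 was higher in 2 of 3 pairs (4, 0 and 0 against 3, 2 and 15). All of these genes had a mean under 10 counts in Detroit 562, so no p is given.

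**Figure D1:**
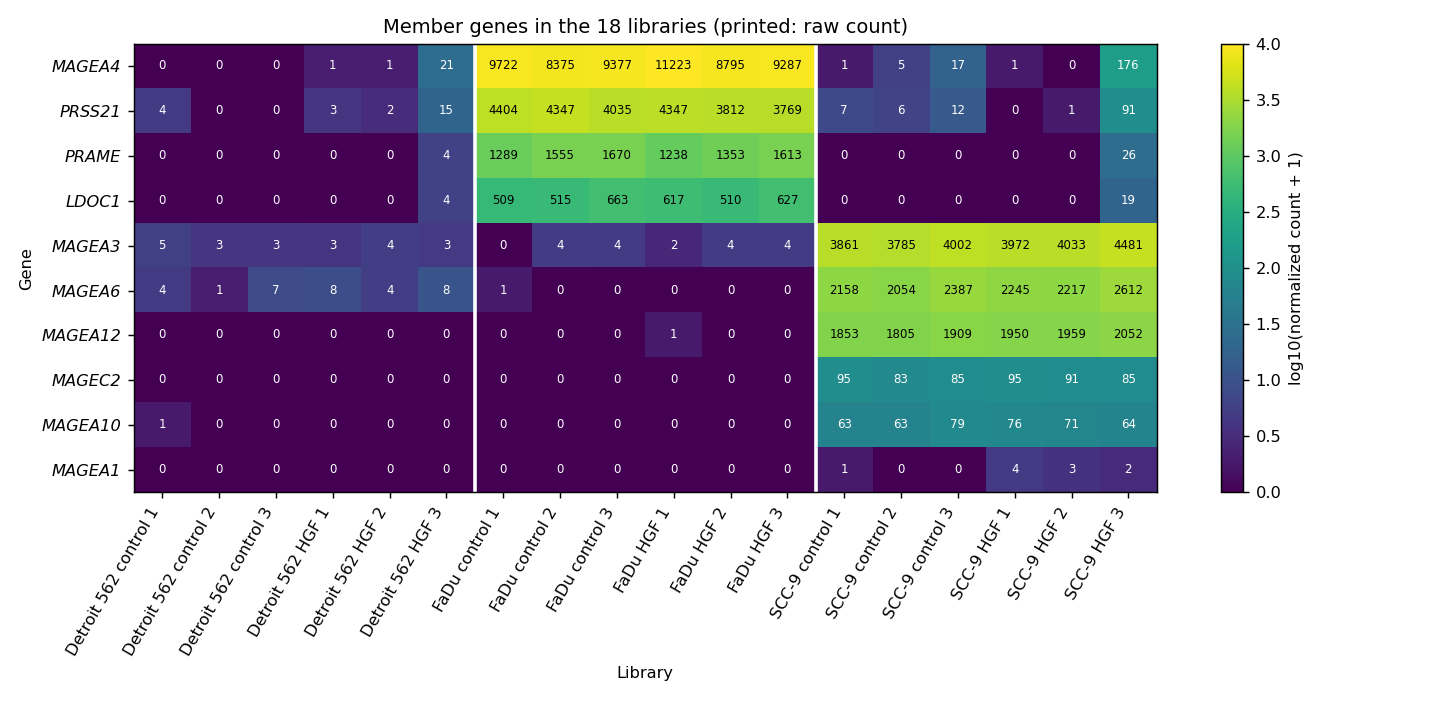
Each row is a gene and each column a library, ordered by line and treatment, with the color giving log10 of the normalized count plus 1 and the printed number the raw count. The FaDu block is bright for MAGEA4, PRSS21, PRAME and LDOC1 and the SCC-9 block for MAGEA3, MAGEA6 and MAGEA12, and the last SCC-9 column is lifted for the 4 FaDu genes, with 176, 91, 26 and 19 counts.

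To compare levels between genes, counts were put on a scale of CPM (counts scaled to library size) per kilobase of exon, with GENCODE 44 exons measured inside the extent over which the table counted each gene. For LDOC1 that extent is 1381 bases, although its GENCODE 44 transcript has 3895, so its level would be lower if the longer transcript were used. The counts themselves cover the whole extent of each gene, introns included, so these levels are approximate. In FaDu, MAGEA4 was highest at a mean level of 67.9 (62.7 to 77.6 over 6 libraries) and PRSS21 next at 50.5 (46.3 to 55.5), and these ranges did not overlap. LDOC1 at 10.0 (8.75 to 11.3) and PRAME at 9.22 (7.54 to 10.3) overlapped on this scale, an order that depends on the length taken for LDOC1. On the scale of counts PRAME was above LDOC1 in every FaDu library. In SCC-9 the order was MAGEA3 at 54.9 (50.7 to 62.1), MAGEA6 at 30.2 (26.6 to 35.0), MAGEA12 at 23.9 (22.1 to 25.9), MAGEC2 at 1.08 (0.991 to 1.14) and MAGEA10 at 0.580 (0.516 to 0.695). No neighbours in this order overlapped, although the step from MAGEA3 to MAGEA6 also depends on how shared reads were counted.

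MAGEA3, MAGEA12 and MAGEA6 sit together on the chromosome, and the genes between them followed the same line, while MAGEC2 and MAGEA10 lie elsewhere on it. From MAGEA3 to MAGEA6 the table lists 8 genes within 70996 bases, which are MAGEA3, CSAG2, MAGEA2B, CSAG1, MAGEA12, MAGEA2, CSAG3 and MAGEA6. All 8 had mean normalized counts between 313.6 and 3906 in SCC-9 and at most 13.4 in the other lines. MAGEA2 and MAGEA2B are near-identical copies, as are CSAG2 and CSAG3, so each pair's SCC-9 counts, 634 to 825 and 272 to 365, may hold the same reads. The pattern ended at the flanks of the block. CETN2, a centrosome gene next to MAGEA6, had mean normalized counts of 1291 (Detroit 562), 1114 (FaDu) and 1136 (SCC-9), and GABRQ, a GABA receptor subunit gene next to MAGEA3, had 64.6, 28.8 and 17.7. GABRA3, which lies with GABRQ between MAGEA10 and MAGEA3, had 167.6, 105.3 and 44.1, lowest in SCC-9 as GABRQ was.

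MAGEA4 lies outside that block and had a different line. Its neighbor GABRE had mean normalized counts of 1720 (Detroit 562), 80.7 (FaDu) and 36.1 (SCC-9), so it was highest in Detroit 562 and lowest in SCC-9. LDOC1 was a FaDu gene between SCC-9 genes. SPANXB1 and SPANXC, sperm protein genes on either side of it, had mean normalized counts of 227 and 49.9 in SCC-9 and at most 3.89 in the other lines. PRSS21 belongs to a cluster of serine protease genes at its locus, yet PRSS22 close by had 1183, 1087 and 177 in Detroit 562, FaDu and SCC-9, and PRSS33 and PRSS41 had at most 10 counts in any library.

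**Figure D2:**
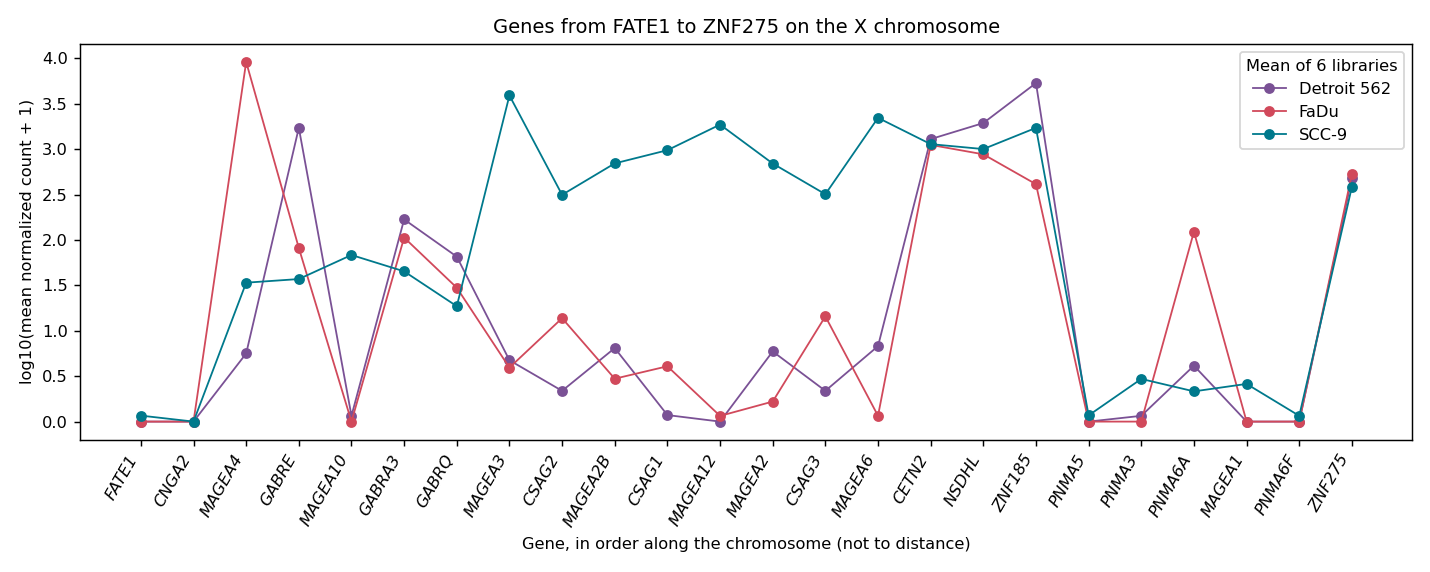
Genes are in chromosomal order on the horizontal axis, not to distance, and the vertical axis gives log10 of the mean normalized count over the 6 libraries of a line plus 1, with 1 colored line per cell line. SCC-9 rises from GABRQ to MAGEA3, stays high through the 8 genes up to MAGEA6 and meets the other lines again at CETN2, while FaDu peaks at MAGEA4.

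The HGF effect was tested within each line with edgeR's quasi-likelihood test and Benjamini-Hochberg adjustment over 15475 genes. Calls required adjusted p < 0.1 with a log2 fold change of 0.4 or more in either direction. None of the 9 genes tested was called in any line. By the same rule 17.9% of all genes were called with Detroit 562 (6.16% higher and 11.7% lower), with FaDu 0.0258% and with SCC-9 0%, so in this fit a count of 0 in FaDu and SCC-9 says little about these genes. The fit does not use the replicate pairs, and with the pairs as a block 867 genes were called in FaDu with 0 of the 9 among them and 305 in SCC-9 with 3 of the 9. Those 3 rest on the same SCC-9 HGF replicate 3 that was known when the genes were chosen. Without SCC-9 HGF replicate 3 the unblocked fit called MAGEA4 and PRSS21 in Detroit 562, and without Detroit 562 control 3 it called MAGEA6 there. Each had at most 21 counts in Detroit 562 and passed the filter on low counts through another line, so no p is given. At an unadjusted p under 0.05 Detroit 562 and FaDu had 0 of the 9 genes each. For SCC-9 no such tally is given. The FaDu genes rest there on HGF replicate 3, which was known when the genes were chosen. DESeq2 called 0 of the 9 in any line and gave no adjusted p for MAGEA4 and PRSS21.

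In FaDu the 4 genes differed by at most 0.10 on the log2 scale between HGF and control, and the groups of each gene overlapped. MAGEA4 had a mean normalized count of 8838 ± 411 (SD, n = 3) in controls and 9435 ± 867 with HGF, a log2 fold change of 0.09 (SE 0.566), with an adjusted p of 0.977 in edgeR's quasi-likelihood test. It was higher with HGF in 3 of 3 same-numbered pairs, but the values of the groups overlapped. PRSS21 went from 4122 ± 296 to 3846 ± 193 (log2 fold change -0.10, SE 0.408, edgeR adjusted p 0.961) and PRAME from 1455 ± 197 to 1360 ± 207 (-0.10, SE 0.367, edgeR adjusted p 0.958). Both were lower with HGF in all 3 pairs, with overlapping groups. LDOC1 went from 542 ± 72.7 to 565 ± 47.5, a log2 fold change of 0.06 (SE 0.398, edgeR adjusted p 0.981), and was higher in 1 of 3 pairs. Two-sided exact permutation tests of the 4 genes gave p of 0.3 to 0.8. These standard errors come from a spread shared with the other lines, which includes the trace counts of replicate 3. With only the FaDu libraries fitted, the SE was 0.0902 for MAGEA4, 0.083 for PRSS21, 0.136 for PRAME and 0.128 for LDOC1, and none of the 4 was called.

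In SCC-9 the 5 MAGE genes differed by at most 0.08 on the log2 scale. MAGEA3 went from 3800 ± 256 to 4012 ± 346, MAGEA6 from 2155 ± 252 to 2274 ± 259 and MAGEA12 from 1816 ± 120 to 1915 ± 91.6, each a log2 fold change of 0.08 with SE 0.107, 0.140 and 0.105. All 3 were higher in 3 of 3 pairs, the groups overlapped, and the adjusted p was 1 in edgeR's test. MAGEC2 went from 85.7 ± 6.10 to 87.0 ± 3.74 and MAGEA10 from 67.1 ± 11.8 to 67.7 ± 4.93, each a log2 fold change of 0.02, with SE 0.192 and 0.237. Two-sided exact permutation tests of the 5 genes gave p of 0.4 to 1. Without HGF-treated replicate 3 the log2 fold changes were 0.01 for MAGEA3, -0.02 for MAGEA6, 0.04 for MAGEA12, 0.05 for MAGEC2 and 0.06 for MAGEA10, none of them called.

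**Figure D3:**
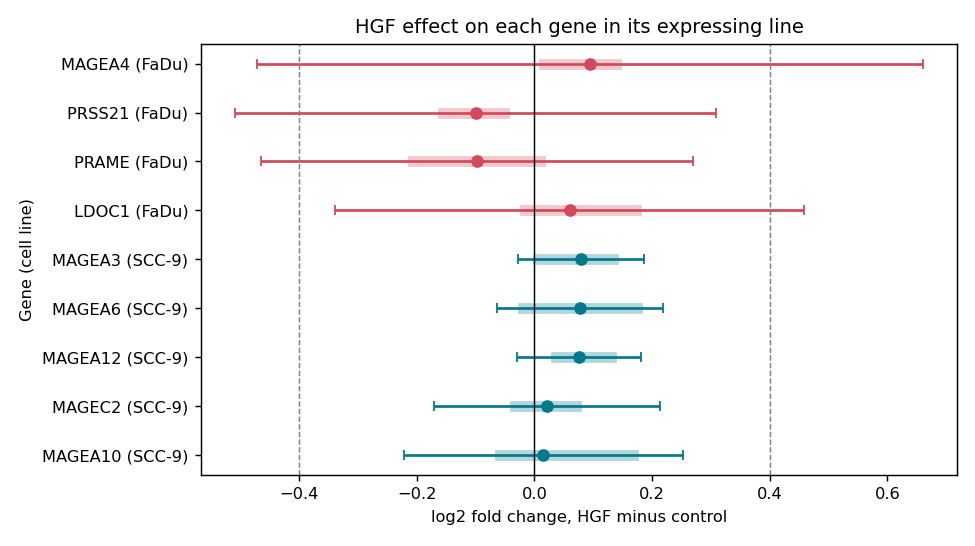
Points are the log2 fold changes of HGF against control for each gene in the line that expressed it, thin bars give 1 standard error on either side, pale bars give the range when each library is left out in turn, and dashed lines mark the threshold of 0.4 on either side of 0. All 9 points lie between -0.10 and 0.09, inside the dashed lines.

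The genes of FaDu also gave counts in SCC-9 and Detroit 562, and these were concentrated in single libraries. In SCC-9, MAGEA4 had 1, 5 and 17 counts in controls and 1, 0 and 176 with HGF, and PRSS21 had 7, 6 and 12 and then 0, 1 and 91. PRAME and LDOC1 were at 0 in the other 5 SCC-9 libraries and had 26 and 19 counts in HGF replicate 3. That library was the highest of SCC-9 for all 4 genes, and the HGF replicates 1 and 2 were at or below the controls. In Detroit 562, HGF replicate 3 had 21 counts of MAGEA4, 15 of PRSS21, 4 of PRAME and 4 of LDOC1, the highest of its line for all 4.

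Set against the mean level in FaDu, the counts in SCC-9 HGF replicate 3 were 1.90% for MAGEA4 (95% exact Poisson interval 1.63 to 2.20), 2.25% for PRSS21 (1.81 to 2.76), 1.82% for PRAME (1.19 to 2.66) and 3.38% for LDOC1 (2.03 to 5.27). The intervals cover counting error only and all overlap, while the FaDu levels of the 4 genes span 554 to 9137 normalized counts. In Detroit 562 HGF replicate 3 the shares were 0.280% (0.174 to 0.429), 0.459% (0.257 to 0.757), 0.347% (0.0945 to 0.888) and 0.881% (0.240 to 2.26) in the same order. In SCC-9 control 3 they were 0.190% (0.111 to 0.304) for MAGEA4 and 0.308% (0.159 to 0.538) for PRSS21, and 0 for PRAME and LDOC1, where the intervals reach 0.268% and 0.681%.

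Other genes of FaDu were looked up in the same way. A rule added after seeing the data took genes with at least 200 counts in every FaDu library and a mean of at most 0.2% of the FaDu level in replicates 1 and 2 of the other lines, with the library examined left out. It gave 8 genes for SCC-9 HGF replicate 3, the 4 above and GATA4, MLPH, GPX3 and TSPYL5. GATA4 is a transcription factor of heart and gonad, MLPH a melanosome transport protein and GPX3 a secreted glutathione peroxidase. They had 12, 12, 7 and 5 counts in SCC-9 HGF replicate 3, against at most 4 in any other SCC-9 library, so all 8 genes had counts there. Their shares ran from 0.948% to 3.38% with a median of 2.08%, and the median of the 4 added genes alone was 2.08%. Summed over the 8 genes, SCC-9 HGF replicate 3 held 348 counts or 2.01% of the FaDu level (1.81 to 2.23), Detroit 562 HGF replicate 3 0.344% (0.253 to 0.456) and SCC-9 control 3 0.192% (0.131 to 0.271). The 4 members, chosen with SCC-9 HGF replicate 3 known, gave 312 of the 348 counts, 44 of 48 and 29 of 32 in these libraries. The sums thus mostly repeat the values of the members. Replicates 1 and 2 of both lines held 0.0111% to 0.0895%. The rule itself keeps these replicates low, so their values are no baseline for replicate 3. Detroit 562 control 3, which the rule did not use, held 0.00634%. By the same rule SCC-9 genes made up 0.0491% to 0.108% in the libraries of the other lines (33 to 36 genes), and Detroit 562 genes 0.0153% to 0.130% (13 to 15 genes). The rule fixed earlier, with at most 5 counts in total elsewhere, gave 4 genes and 2.02% (1.53 to 2.62) for SCC-9 HGF replicate 3 and almost no genes for other libraries. Of its 57 counts there, PRAME gave 26 and LDOC1 19, so it is no separate result. The source of these counts was not tested.

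**Figure D4:**
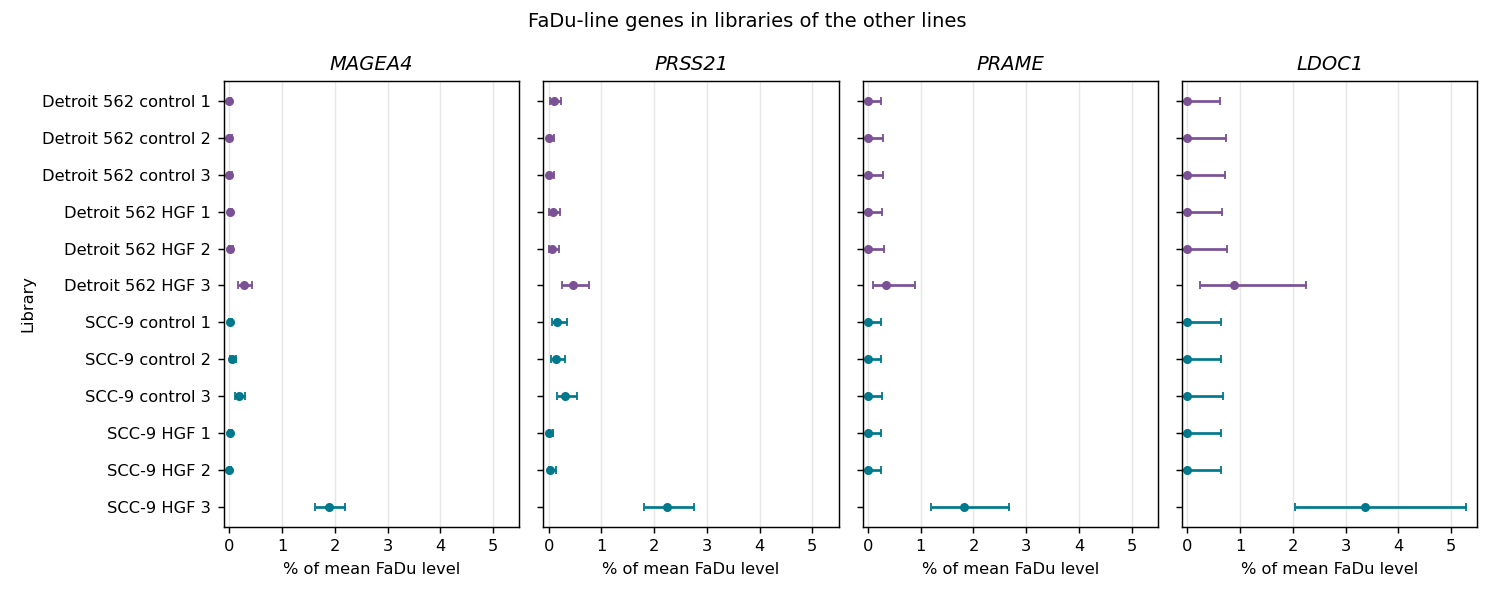
Each panel is a FaDu gene and each row a library of Detroit 562 or SCC-9, the horizontal axis gives the normalized count as a percent of the mean FaDu level, and bars are 95% exact Poisson intervals for counting error. SCC-9 HGF 3 stands at 1.82% to 3.38% in all 4 panels, Detroit 562 HGF 3 at 0.280% to 0.881%, and the other libraries at or near 0.

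These counts decided the HGF values of the FaDu genes in SCC-9, which are given without a p since that library was known when the genes were chosen. For MAGEA4 in SCC-9 the mean normalized count was 7.70 ± 8.59 in controls and 58.1 ± 99.8 with HGF, a log2 fold change of 2.91 (SE 1.35). It was higher with HGF in 1 of 3 pairs. PRSS21 in SCC-9 went from 8.23 ± 3.53 to 30.2 ± 51.4, a log2 fold change of 1.85 (SE 1.07), also higher in 1 of 3 pairs. Without HGF replicate 3 the counts left were 1, 5 and 17 in controls against 1 and 0 with HGF for MAGEA4. For PRSS21 they were 7, 6 and 12 against 0 and 1. The fitted log2 fold changes turned to -3.66 and -3.78, but such means lie under the 10 counts set for a fold change. These values are therefore no measure of an HGF effect.

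When replicate number entered the fit as a block nested in the line, 3 of the 9 genes were called in SCC-9 and 3 in Detroit 562, all higher with HGF and the same in both lines (MAGEA4, PRAME and LDOC1). In the same fit 0.562% of all genes were called higher in SCC-9 and 7.13% in Detroit 562. The SCC-9 calls rest on the library known beforehand and are no independent evidence. The Detroit 562 calls are given without a p, since these genes passed the filter on low counts through FaDu. Nearly all of their counts in Detroit 562 lay in HGF replicate 3. MAGEA4 had 0, 0 and 0 counts in its controls and 1, 1 and 21 with HGF. PRAME and LDOC1 each had 0, 0 and 0 and then 0, 0 and 4. PRAME and LDOC1 had counts in 1 library of each line, which is HGF replicate 3, so no fold change is given. Without SCC-9 HGF replicate 3 the blocked fit called 0 of these genes in SCC-9 (0.0959% of all genes were called higher) and 4 in Detroit 562 (7.29%). Without Detroit 562 HGF replicate 3 it called 0 in Detroit 562 (7.6%) and 3 in SCC-9 (0.652%). The difference of the HGF effect between FaDu and SCC-9 was -2.82 on the log2 scale for MAGEA4 and -1.95 for PRSS21, neither called, and 0% of all genes were called in that comparison. None of the 9 genes was called for the differences of Detroit 562 from FaDu or from SCC-9 either, where 0.239% and 0.924% of all genes were. With the block MAGEA4 and PRAME were called between Detroit 562 and FaDu, beside 19.1% of all genes. Between FaDu and SCC-9 1.32% of all genes were called with the block, and MAGEA4 (-2.74), PRAME and LDOC1 were among them. The differences and calls of these genes between FaDu and SCC-9 rest on SCC-9 HGF replicate 3, known beforehand, and are no independent evidence. Those between Detroit 562 and FaDu rest on Detroit 562 HGF replicate 3, at 21 counts of MAGEA4 and 4 of PRAME.

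A list of 111 other cancer-testis genes was followed beside the 10, of which 109 were in the table and 71 of these on the X chromosome. At 10 counts or more in every library of a line, SCC-9 expressed 28 of them, FaDu 13 and Detroit 562 10. In SCC-9 19 of the 28 were on the X chromosome, in FaDu 2 of 13 and in Detroit 562 0 of 10. SCC-9 was alone in 17 genes, all on the X chromosome, Detroit 562 in DAZL and FaDu in TEX19, 6 genes were in all 3 lines and 77 in none. The 17 are not independent, since MAGEA2 and MAGEA2B, CSAG2 and CSAG3, and the GAGE and SPANX genes belong to multicopy families. Their counts may hold the same reads, and the MAGEA2 and CSAG genes lie together in the MAGEA block. DAZL, a germ-cell RNA-binding protein gene, had 30 to 90 counts in Detroit 562 and at most 2 elsewhere. TEX19 was not confined to FaDu, with 31 to 73 counts there, 2 to 17 in Detroit 562 and 6 to 19 in SCC-9.

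Untreated lines were compared for the 39 of these genes that passed the filter. A gene that passed only through SCC-9 had to be higher there, so the counts against SCC-9 describe the genes and support nothing further. FaDu was higher than SCC-9 in 7 and lower in 28, while over all genes 30.7% were called higher and 33.5% lower. Detroit 562 was higher than SCC-9 in 6 and lower in 28 (31.4% and 33.9% of all genes), and higher than FaDu in 9 and lower in 12 (31.2% and 29.8%). These comparisons share control libraries. CSAG1, which lies inside the MAGEA block, had 919 to 1057 counts in SCC-9, 2 to 6 in FaDu and 0 or 1 in Detroit 562. ZNF165, a zinc finger gene expressed in all 3 lines, was lower in Detroit 562 than in FaDu by a log2 of -1.72 (SE 0.0985, edgeR adjusted p 1.01e-10), at mean normalized counts of 207 and 713. HORMAD1, a gene of meiotic chromosome pairing, had mean normalized counts of 267 (Detroit 562), 48.0 (FaDu) and 265 (SCC-9). TEX15, needed for meiosis in male germ cells, had 237, 5.17 and 66.7.

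HGF lowered 4 of these 39 genes in Detroit 562 and raised 0, where 11.7% of all genes were called lower and 6.16% higher. LYPD6B had 1145, 835 and 539 counts in controls and 412, 361 and 187 with HGF, a log2 fold change of -1.29 (SE 0.262, edgeR adjusted p 0.00341), with all HGF libraries below all controls. STK31, a testis kinase-like gene, had 100, 66 and 52 counts in controls and 41, 31 and 19 with HGF (log2 fold change -1.16, edgeR adjusted p 0.0107). The groups of STK31 did not overlap either. DAZL went from 90, 82 and 57 to 47, 43 and 30 counts (-0.83, edgeR adjusted p 0.0659) and CTAGE1 from 120, 107 and 97 to 61, 78 and 69 (-0.52, edgeR adjusted p 0.0686). The median log2 fold change over the 39 genes was -0.42, beside -0.01 over all genes, and many of the 39 had few counts in Detroit 562. In FaDu and SCC-9 0 of the 39 were called, where 0.0258% and 0% of all genes were. At an unadjusted p under 0.05 these lines had 3 and 2 of the 39, beside 1247 and 641 of all 15475 genes. Those of SCC-9 include DDX53, which passed the filter on low counts only through the treated SCC-9 libraries. DESeq2 called 0 of the 39 in either line. With the block 5 were called lower in Detroit 562, where CABYR was the addition, and 2 in FaDu (STK31 and CABYR). In the same fit 14.4% and 3.6% of all genes were called lower.

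In SCC-9 none of the 5 genes of the MAGEA block that lie between the members was called with HGF. Their log2 fold changes ran from -0.13 for CSAG3 and -0.12 for CSAG2 to 0.12 for MAGEA2 and MAGEA2B, each with an edgeR adjusted p of 1 and an SE of 0.131 to 0.215. MAGEA2 had 634, 694 and 714 counts in controls and 704, 727 and 820 with HGF (log2 fold change 0.12, SE 0.178), and CSAG1 had 982, 990 and 1030 and then 919, 1057 and 1043 (-0.01, SE 0.131). The groups of both overlapped. DDX53, a germ-cell helicase gene of the X chromosome that was singled out after its values were seen, had 9, 9 and 8 counts in SCC-9 controls and 25, 17 and 18 with HGF, without overlap. It was not called. DDX53 was at 0 in the other lines and passed the filter on low counts only through the HGF-treated SCC-9 libraries, so no p is given.

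Genes related to the members by family or function were followed for comparison. Of the 9 ubiquitous MAGE genes tested and of the 11 partners of MAGE and PRAME proteins (ubiquitin ligases and related genes), 0 were called by HGF in any line. At an unadjusted p under 0.05 Detroit 562 had 2 and 5 of them, while FaDu and SCC-9 each had 1 and 0, and DESeq2 called 1 ubiquitous MAGE gene in Detroit 562. Of the 9 enzymes of DNA methylation, TET2, which oxidizes methylcytosine, was called in Detroit 562, where it had 1662, 1455 and 1391 counts in controls and 1050, 1102 and 950 with HGF (log2 fold change -0.43, edgeR adjusted p 0.00532), beside 11.7% of all genes called lower there. The other 8 were not called there. Of the 9, 5 had an unadjusted p under 0.05 there, beside 5947 of all 15475 genes. With no minimum fold 5 had an adjusted p under 0.1, beside 5276 of all genes. In FaDu and SCC-9 0 of the 9 were called, 0 had an unadjusted p under 0.05 and DESeq2 called 0. Of 12 gag-derived genes related to LDOC1, 0 were called in any line by edgeR or DESeq2, with 4, 1 and 0 at an unadjusted p under 0.05 in Detroit 562, FaDu and SCC-9. Of 11 serine proteases related to PRSS21, 5 were called lower in Detroit 562, beside 11.7% of all genes, and DESeq2 called 6 there. In the other lines 0 were called, where 2 in FaDu and 0 in SCC-9 had an unadjusted p under 0.05 and DESeq2 called 0. With the block 4 were called lower in FaDu, beside 3.6% of all genes. The 5 were TMPRSS13 (-1.87), PRSS27 (-1.28), TMPRSS2 (-1.07), PRSS22 (-0.93) and PRSS8 (-0.66), the last being prostasin, a channel-activating protease of epithelia. TMPRSS13 had 294, 277 and 165 counts in Detroit 562 controls and 74, 78 and 36 with HGF, without overlap.

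The genes most like the members were found by Pearson correlation of log2 CPM over the 18 libraries. The points fall into clusters by line, so the correlation describes a shared line and carries no p. For MAGEA4 they were GPX3 (0.987), WT1 (0.987) and OLFM1 (0.983), for PRSS21 GPX3 (0.987), GATA4 (0.983) and WT1 (0.983), for PRAME GPX3 (0.997), APBA2 (0.994) and GATA4 (0.992), and for LDOC1 GPX3 (0.996), APBA2 (0.993) and ZNF354C (0.991). GPX3 was thus first for all 4 FaDu genes, and it was also among the genes with counts in SCC-9 HGF replicate 3. For MAGEA3 they were ALOX15B, KRT81 and KRBOX1 (all 0.997), for MAGEA6 TRNP1 (0.996), ATP13A2 (0.994) and EPGN (0.994), and for MAGEA10 ZNF71 (0.999), TSPY3 (0.998) and SCD5 (0.998). MAGEA12 and MAGEC2 shared their 3 nearest genes, which were GS1-309P15.2, TSPY10 and TSPY3.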

How the data were processed

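mRNA libraries of 18 samples (3 lines, control and HGF, 3 replicates each) were analysed from the deposited table of raw counts per gene. Per the labels and the study's methods, the authors made stranded poly(A) libraries, sequenced pooled libraries from 1 end, trimmed reads with Cutadapt 1.16, aligned them with STAR 2.5.2b to GRCh38.p12 with GENCODE 28 and counted reads over each gene's extent, by strand, with bedtools. The values are whole-number counts without normalization, the counting command holds no filter on reads that align to several places, and whether such reads were removed earlier is not given in the sources used here. No gene of the table overlaps one of the 10 members. The members and lists were chosen with earlier results of these data known.

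Counts were fitted with edgeR 4.0.16 in R 4.3.3 (TMM, filterByExpr on the 6 groups, 15475 genes left, 1 mean per line and treatment, quasi-likelihood test, Benjamini-Hochberg adjustment). Calls needed adjusted p < 0.1 with a log2 fold change of 0.4 or more in either direction, and differences of the HGF effect between lines the adjusted p alone. A normalized count is the count divided by the TMM-scaled library size, times the mean of these sizes. Exact permutation tests (two-sided) were added for single genes. Total counts of 35304770 to 44003970 set the precision, and a member with a mean under 10 counts in a line is given there by its counts. Intervals are exact Poisson and cover counting error only.

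Libraries of the same replicate number were taken as pairs, which the labels do not state. The deviation of a control library from its group mean and that of the HGF library with its number correlated across genes. For Detroit 562 r was 0.295, 0.161 and 0.454, for FaDu 0.376, 0.441 and 0.563, and for SCC-9 0.332, 0.203 and 0.286, and those of different numbers averaged -0.144, -0.227 and -0.136. The negative averages follow from taking deviations from the mean of 3 libraries and add nothing to the same-number values. Genes are not independent replicates in this check. A fit blocked on the number, nested in the line, was an alternative. The others were DESeq2 1.42.0 with and without its prior, edgeR with size factors from DESeq2 or with upper-quartile scaling, other filters and thresholds, a fit of the compared lines alone, and each library left out. The blocked fits without HGF replicate 3 of SCC-9 or Detroit 562 and 2 rules for line-restricted genes were added after seeing the data. Only the unblocked edgeR fit was tested on simulated counts, for HGF against control in FaDu.

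Named genes were all members, list genes called by HGF (at most 5 per list and line), the 12 other cancer-testis genes with the highest mean count, the MAGEA and CSAG genes, the 3 genes most correlated with each member, and the 5 restricted genes with the highest count in a library. Neighbors on the chromosome, TEX19, DDX53, the restricted genes past the 5 and examples picked from the 12 were named after their values were seen. Exon lengths and coding sequences came from GENCODE 44 and promoters from RefSeq (GRCh38.p14). No coordinates were converted.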

Additional observations from a re-analysis of the deposited data

How the results depend on the processing

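Over all results and alternatives, 683 values were labelled as the same, 25 as stronger, 16 as weaker and 12 as turned. Many of these values are counts of called genes, and the label of the same did not require an equal value. It covered 1958 genes called in Detroit 562 without control replicate 2, against 2766 in the main fit. It also covered MAGEA4 in SCC-9 at a log2 fold change of 0.35 by DESeq2 with its prior, against 2.91, neither called. The replicate block gave 3 members called by HGF in Detroit 562 and 3 in SCC-9, 2 for the difference between Detroit 562 and FaDu, 3 for that between FaDu and SCC-9, 2 other cancer-testis genes in FaDu, and MAGEA4 in SCC-9 at a log2 of 2.84. The blocked fit without SCC-9 HGF replicate 3 called 4 members in Detroit 562 and turned SCC-9 MAGEA4 to -2.31 and PRSS21 to -3.40. Both genes then had at most 17 counts in any SCC-9 library. Without Detroit 562 HGF replicate 3 it called 3 members in SCC-9, with MAGEA4 at 2.84. A filter of at least 50 counts in 3 libraries tested fewer genes and left 18 other cancer-testis genes that differed between untreated Detroit 562 and SCC-9 and 18 between FaDu and SCC-9, in place of 34 and 35, and the stricter threshold left 2 lowered by HGF in Detroit 562 in place of 4.

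Leaving out each library in turn gave 0 to 2 members called in Detroit 562 (MAGEA6 without control 3, and MAGEA4 and PRSS21 without SCC-9 HGF 3) and 2 to 9 other cancer-testis genes, with 2 without control 1 or control 2 and 9 without HGF 2. Log2 fold changes ranged from -0.015 to 0.17 for LDOC1 and -0.21 to 0.0092 for PRAME in FaDu, and in SCC-9 from -0.058 to 0.17 for MAGEA10, -0.033 to 0.070 for MAGEC2, -0.020 to 0.17 for MAGEA6, -3.66 to 4.26 for MAGEA4 and -3.78 to 2.44 for PRSS21. The lowest values of the last pair came without HGF replicate 3, at no more than 17 counts per library. The pair had no value in a fit of SCC-9 alone, where they failed the filter.

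Over the whole table, 4 genes were called in FaDu, beside 867 with the block, 66 and 64 by DESeq2, 0 in a fit of FaDu alone, 1 at the stricter threshold and 0 to 74 with a library left out. In SCC-9 0 were called, beside 305, 19 and 17, 25, 0 and 0 to 2, and 3 with no minimum fold. In Detroit 562 the 2766 calls became 621 at the stricter threshold, 5276 with no minimum fold and 1586 to 3629 with a library left out. The block gave 2956, 4170 and 204 calls for the differences between lines in place of 37, 143 and 0. The causes were not tested. The rule for restricted genes fixed first gave no genes, and so no value, for most libraries. Genes with a few counts per library are limited by counting error, and their fitted fold changes depend on the prior count.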
